A study of Mus musculus with 15 samples.

Results

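The replication-dependent histone genes are taken here as the genes whose symbol starts with Hist1h, Hist2h, Hist3h or Hist4h. The rule found 70 of the 55228 genes listed in the RNA-seq tables: 6 H1, 20 H2A, 19 H2B, 12 H3 and 13 H4 genes. Of them 56 carry a Hist1 symbol and lie on chromosome 13, where 55 form a cluster and Hist1h2al (chr13:51202727-51203065) lies far from it. The Hist2 cluster on chromosome 3 holds 10, the Hist3 cluster on chromosome 11 holds 3, and Hist4h4 lies on chromosome 6. The annotation gives 3 of the 70 as pseudogenes, Hist1h2al, Hist1h2aj and Hist3h2bb-ps. RNA came from the mouse embryonic stem cell (ESC) line 81K1, derived from OG2, which carries an shRNA against Smarcb1 that is switched on by doxycycline. The study describes 81K1 as a clone with the shRNA cassette at Rosa26, so all 15 libraries share that line and its cassette. The 5 groups had 3 libraries each: untreated cells at 48 h and 240 h (ctrl), and cells given 1 µg doxycycline per ml every day for 48 h, 72 h or 240 h (kd). No untreated group at 72 h was analysed here, so the 72 h kd group is set against the 48 h ctrl group. The labels do not say whether replicates were separate cultures, so p-values measure the spread between these libraries, which may be technical. Doxycycline-treated cells without the shRNA were not analysed here, so the drug and the knockdown cannot be told apart.

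Replication-dependent histone genes supply the H1, H2A, H2B, H3 and H4 proteins that package newly made DNA. Their mRNAs accumulate in S phase and usually end in a conserved stem-loop, bound by SLBP, in place of a poly(A) tail. Many copies within a type encode almost the same protein, and some of these genes are also known to make polyadenylated transcripts that run past the stem-loop. The molecule is labelled as total RNA, and whether poly(A) RNA was selected is not given in the sources used here.

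The stem-loop is shown first because it is the sequence that sets this class of mRNA apart. The letters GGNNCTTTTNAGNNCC, 16 bases searched on the gene's strand, occurred in an annotated transcript of 44 of the 70 histone genes. They occurred in 89 of 55450 genes (0.161%) of the GENCODE M21 annotation. The 5 examples below give these 16 bases in capitals with 5 bases on either side, 5′ to 3′.
Hist1h1c: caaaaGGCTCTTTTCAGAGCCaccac
Hist3h2a: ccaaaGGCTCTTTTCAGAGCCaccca
Hist3h2ba: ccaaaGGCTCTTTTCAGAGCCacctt
Hist2h3c1: acaaaGGCTCTTTTCAGAGCCaccac
Hist1h4i: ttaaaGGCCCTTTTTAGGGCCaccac
The stem differed by histone type. All 11 H4 genes with a match held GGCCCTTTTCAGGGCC (7 genes), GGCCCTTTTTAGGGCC (2 genes) or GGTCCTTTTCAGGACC (2 genes). The 33 matches in H1, H2A, H2B and H3 genes all began with GGCTC and ended with GAGCC, and 26 of them were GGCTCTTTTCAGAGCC. Transcripts of Hist1h2bc and Hist2h2be, both encoding H2B, held no match to these letters in this annotation. The longest annotated transcript had a median of 408 bases in the 26 genes without a match and 620.5 bases in the 44 with one. Some models may therefore end before the stem-loop, and no match does not show that it is absent from the gene. The longest transcripts of Hist2h2be (2620 bases) and Hist1h2bc (1156 bases) were well above that median of 408, so short models do not describe these 2 genes.

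Upstream sequences are shown for Hist3h2a, which was called lower at 72 h and 240 h, and Hist2h3c1, which was called higher at 48 h and lower at 240 h. They are RefSeq promoters of build GRCm38.p6, given as the 250 bases before the annotated start: chr11:58954435-58954684 (plus strand) for Hist3h2a and chr3:96246435-96246684 (plus strand) for Hist2h3c1. Capitals mark CCAAT and the octamer ATTTGCAT, on either strand, and TATAA on the gene's strand.
Hist3h2a: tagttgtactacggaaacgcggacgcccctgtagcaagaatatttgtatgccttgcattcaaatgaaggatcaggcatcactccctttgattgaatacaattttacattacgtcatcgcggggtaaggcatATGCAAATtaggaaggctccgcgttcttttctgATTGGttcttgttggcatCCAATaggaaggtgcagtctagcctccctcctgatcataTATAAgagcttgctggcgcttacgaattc
Hist2h3c1: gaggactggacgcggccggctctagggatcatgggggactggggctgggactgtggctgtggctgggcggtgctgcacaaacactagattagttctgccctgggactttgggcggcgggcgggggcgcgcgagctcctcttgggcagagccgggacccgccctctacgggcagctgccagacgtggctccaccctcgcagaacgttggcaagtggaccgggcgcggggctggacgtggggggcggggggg
The Hist3h2a stretch held all 3 motifs and the Hist2h3c1 stretch held none of them. Among the 62 histone genes matched to a RefSeq promoter, 51 (82.3%) held CCAAT, against 34.5% of all 27025 promoters. TATAA was in 33 (53.2%), against 16.7% of all promoters. The octamer was in 13 (21.0%), against 1.61% of all promoters. It was found in 7 of 18 H2A and 6 of 16 H2B promoters and in no H1, H3 or H4 promoter. Windows of neighbouring genes on opposite strands can overlap, so these are not all separate sites. The same octamer was counted for both genes in Hist1h2ah and Hist1h2bk, in Hist1h2ae and Hist1h2bg, and in Hist1h2aa and Hist1h2ba. These matches describe letters in a window and not occupied sites.

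The tables held 11074998 to 14515300 reads per library, recovered from FPKM (reads per 1000 bases and 1000000 reads, here taken over the whole gene span, introns included). Smarcb1, the target of the shRNA, fell from 3.60 ± 0.29 to 0.647 ± 0.161 FPKM at 48 h (SD, n = 3). It was at 0.564 ± 0.0662 at 72 h, and for 240 h it was 3.42 ± 0.124 in ctrl and 0.660 ± 0.0531 in kd libraries. The 6 ESC markers summed to 1315 to 2353 FPKM in every library, whereas the primitive endoderm, trophoblast, mesoderm and fibroblast lists each summed to at most 1.60 FPKM. Within that range the trophoblast sum at 240 h was 0.741 to 0.901 in ctrl and 1.39 to 1.60 in kd libraries. The fibroblast sum was 0.859 to 0.974 and 1.35 to 1.56, with Col1a1 called higher (log2 fold change 1.497) and Thy1 at -0.43 (adjusted p = 0.00450), under the required fold. Thy1 was called lower at 48 h (-0.81, adjusted p = 0.0443). The mesoderm sum at 240 h was 0.187 to 0.526 in ctrl and 0.660 to 0.837 in kd libraries, and the primitive endoderm sum was 0.742 to 0.775 and 0.491 to 0.637. At 48 h the primitive endoderm sum was 0.554 to 0.5802 without and 0.201 to 0.278 with doxycycline, and the trophoblast sum was 0.663 to 0.746 and 0.388 to 0.448. At 72 h the primitive endoderm (0.130 to 0.226), mesoderm (0.217 to 0.429) and fibroblast (0.566 to 0.668) sums lay below those of the 48 h ctrl libraries, whose mesoderm and fibroblast sums were 0.466 to 0.496 and 0.729 to 0.929. The part of these markers in the histone values was not tested. ESC marker sums were highest at 72 h, at 2259 to 2353, where Dppa5a was called higher (log2 fold change 1.04) while Zfp42 was at -0.42 and Esrrb at -0.13. At 240 h Esrrb (-0.78) and Zfp42 (-0.58) were called lower in kd cells. The 4 neural progenitor markers summed to 7.34 to 8.47 FPKM in ctrl libraries and 13.02 to 20.9 in kd libraries, and Sox1 among them was called higher at each time. Nes, the other neural marker tested, was at -0.43 at 48 h and -0.48 at 72 h, under the required fold, and was called higher at 240 h (0.64). No marker of these lists was at 0 in a whole group except 1 mesoderm marker at 48 h in kd cells. Mitochondrial genes took 0.469% to 2.35% of reads, with the highest share in replicate 2 of the 48 h kd group. Replicates differed by more than counting error, with a chi-square of 1.27 to 10.2 per degree of freedom.

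Histone genes were thinly covered. All 70 together held 212 to 594 reads per library, which is 16.6 to 51.1 RPM (reads per 1000000 reads of the library). Of them 9 genes reached a mean of 10 reads over the 15 libraries, and these held 70.02% of the histone reads. They were Hist1h2bc (90.8 reads), Hist1h1c (50.9), Hist3h2a (50.3), Hist1h2be (36.3), Hist2h2be (18.1), Hist1h4i (18.1), Hist2h3c1 (18), Hist3h2ba (13.1) and Hist1h1d (11). A further 51 genes had some reads below that mean, and 10 were at 0 in every library. A count of 0 allows up to 3 reads per library, and intervals and floors here cover counting error only. For comparison, the replacement variant gene H2afz, whose mRNA is polyadenylated, had 5584 to 7656 reads in each library.

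Most genes at 0 shared sequence with their relatives. The longest annotated transcript of each gene was split into windows of 75 bases, the number of sequencing cycles. Each window was looked for in all other genes that do not overlap that gene. In the 10 genes at 0 a median of 9.26% of windows were found nowhere else. The medians were 57.6% in the 51 genes with few reads and 91.2% in the 9 genes with a mean of 10 or more. Hist2h2aa2, with 0% of such windows, and Hist2h2aa1, with 3.91%, are near-identical H2A genes. How the authors treated reads that align to several places is not given in the sources used here. Levels of such genes are uncertain, and a 0 cannot be read as absence of their RNA.

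The genes with reads also tended to have annotated transcripts that run far past the stem-loop. Of the 44 genes with a stem-loop, 18 had 300 or more annotated bases after it, and their median of the mean reads was 4.90. The other 26 had a median of 1.40 reads. The first set held 52.1% and the second 13.9% of all histone reads, and 6 of the 7 stem-loop genes with a mean of 10 or more reads were in the first. The stretch after the stem-loop was 840 bases in Hist1h1c, 1643 in Hist3h2a, 1167 in Hist2h3c1, 4884 in Hist1h1d, 330 in Hist1h4i and 169 in Hist3h2ba. The sets also differed in windows found nowhere else, with medians of 88.9% and 50.7%. The 26 genes without a stem-loop match held the other 34.1% of the reads, with a median of the mean reads of 0.433, and Hist1h2bc, which had the most reads, was among them. Longer spans also collect more reads, so length, unique sequence and the kind of transcript cannot be told apart here.

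**Figure D1:**
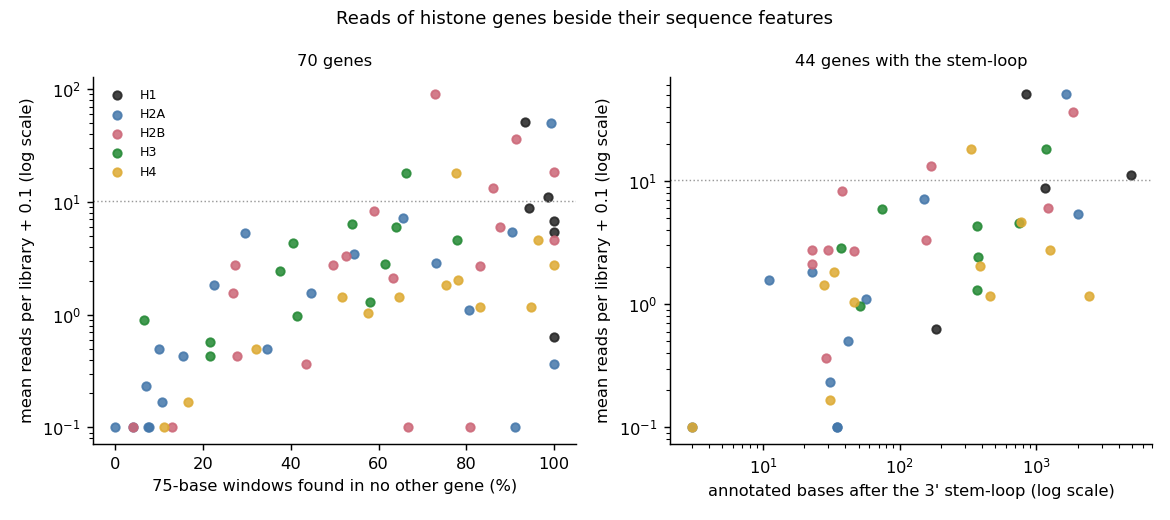
Mean reads per library plus 0.1 (log axis) of each histone gene against the share of its 75-base windows found in no other gene (left, 70 genes) and against the annotated bases after the 3′ stem-loop (right, 44 genes, log axis). Colours give the histone type and the dotted line lies at a mean of 10 reads. Genes at the bottom with 0 reads mostly have few windows of their own.

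Summed over all 70 genes, histone reads overlapped between ctrl and kd cells at 48 h, were lowest in kd cells at 72 h and were below ctrl at 240 h. At 48 h ctrl libraries held 38.2, 40.4 and 51.1 RPM of histone reads, and kd libraries held 42.2, 50.6 and 42.4. At 72 h the kd libraries held 16.6, 18.5 and 18. At 240 h ctrl libraries held 45.0, 40.6 and 40.3, and kd libraries held 30.4, 28.5 and 29.1. The groups overlapped at 48 h and did not overlap at 72 h or 240 h. The mean at 72 h was 40.9% of that in the 48 h ctrl group, and the mean at 240 h was 69.9% of that in the 240 h ctrl group. Between 72 h and 240 h the mean in kd cells was higher by a ratio of 1.66. No p is given for these sums. In bulk RNA, fewer cells in S phase and less histone RNA per cell cannot be told apart.

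The 72 h sums were below ctrl in every histone type. The 6 H1 genes, which encode linker histones, summed to 7.44, 7.76 and 11.8 RPM in ctrl cells at 48 h and to 3.75, 2.91 and 2.86 in kd cells at 72 h. For the 20 H2A genes the values were 8.17, 7.49 and 10.2 against 3.13, 3.80 and 3.54. For the 19 H2B genes they were 15.6, 17.2 and 18.2 against 7.27, 9.55 and 8.21. H1, H2A and H2B, the last the type with most reads, were thus separated without overlap. The 12 H3 genes summed to 4.37, 3.52 and 6.27 RPM at 48 h in ctrl cells and 1.17, 1.05 and 2.11 at 72 h. The 13 H4 genes summed to 2.62, 4.42 and 4.68 against 1.25, 1.21 and 1.28. These groups did not overlap either.

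The order of the types depended on the scale. In RPM, in which genes with long spans weigh most, the mean at 72 h was 49.1% of ctrl for H2B, 40.6% for H2A, 35.2% for H1, 31.9% for H4 and 30.6% for H3. In summed FPKM, in which short genes weigh more, the ratio was 0.449 for H2A, 0.345 for H1, 0.307 for H2B, 0.273 for H4 and 0.257 for H3. H3 was lowest on both scales, but its difference from the next type was not tested.

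At 240 h every type but H4 was below ctrl without overlap. H2A was at 55.4%, H3 at 56.2%, H1 at 66.3% and H2B at 77.9% of the 240 h ctrl mean in RPM, and none of these overlapped between groups. H4 was at 86.8%, with 3.30, 2.76 and 2.73 RPM in ctrl and 2.43, 2.34 and 2.86 in kd libraries, and these groups overlapped. At 48 h every type overlapped between ctrl and kd cells.

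**Figure D2:**
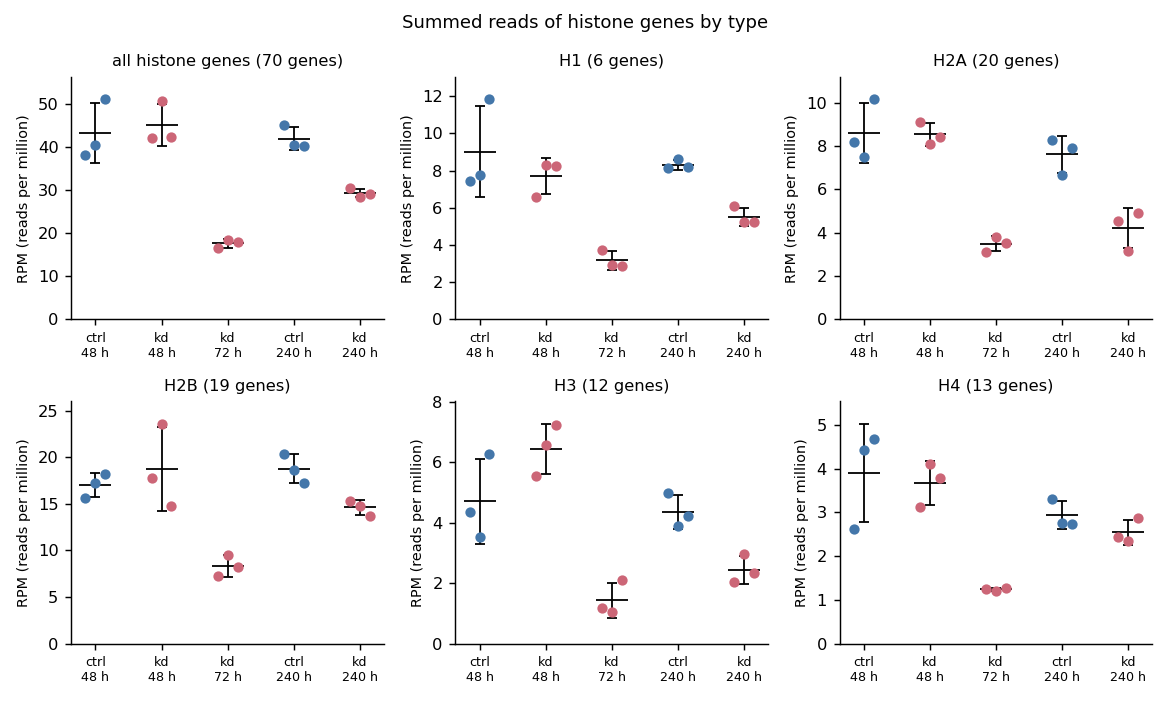
Summed RPM of all histone genes and of each histone type in the 5 groups. Points are libraries (blue ctrl, red kd), the dash is the group mean and bars are SD (n = 3). The 72 h kd libraries lie below every 48 h ctrl library in each panel, and H4 alone overlaps between ctrl and kd at 240 h.

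The sum of the thinly covered genes was also lowest at 72 h. The 61 genes with a mean under 10 reads had 158, 165 and 233 reads in total in ctrl cells at 48 h and 62, 59 and 59 in kd cells at 72 h. In RPM their mean at 72 h was 29.9% of the 48 h ctrl mean. Of the 57 histone genes with a read in either group, 53 (93.0%) had the lower mean at 72 h, against 51.6% of all 31738 genes with a read. At 240 h 47 of 58 (81.0%) had the lower mean in kd cells, against 48.1% of all genes. At 48 h the count was 33 of 58 (56.9%), against 47.6% of all genes. The 44 genes that overlap no other listed gene gave 39.8% at 72 h and 70.4% at 240 h of the respective ctrl mean. In single genes of this kind the counts were small. Hist1h3d, an H3 gene, had 6, 3 and 11 reads in ctrl cells at 48 h and 1, 0 and 0 in kd cells at 72 h. Hist1h3g, another H3 gene, had 10, 8 and 10 against 3, 1 and 3 reads. These 2 genes were named after their values were seen.

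Changes of single genes were tested with limma on log2(FPKM + 0.1), with Benjamini-Hochberg adjustment over all genes tested. A gene entered a test with a mean of at least 0.5 FPKM and 10 reads in the libraries compared, and was called at an adjusted p under 0.05 and a log2 fold change beyond 0.58 in either direction. This left 4 to 8 histone genes per comparison. Because the filter uses the same libraries, a gene that passed only through the group where it is high had to differ, so the counts below are a description and no support for a direction over all 70 genes. The call uses the same libraries too, so the separation of groups in a called gene is a description as well. Hist1h2be and Hist1h1d, which have spans of 37455 and 7425 bases, never reached 0.5 FPKM. Their changes come from limma voom on the recovered reads, an alternative with no FPKM minimum.

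At 48 h 2 of the 8 histone genes tested rose and none fell, while 2.23% of all 10606 genes tested rose. Both lie in the Hist2 cluster, and Hist2h2be, at 0.391 FPKM in ctrl cells, passed the filter only through the kd group. The median log2 fold change over the 8 genes was -0.03, against 0.00 over all genes tested. Hist2h3c1, an H3 gene at chr3:96246685-96248509, had 13, 9 and 15 reads in the ctrl libraries and 38, 32 and 44 in the kd libraries. All kd libraries lay above all ctrl libraries. The level rose from 0.563 ± 0.146 to 1.83 ± 0.341 FPKM, a log2 fold change of 1.55 ± 0.19 (SE; adjusted p = 0.00312). Hist2h2be, an H2B gene at chr3:96221119-96223738, had 14, 13 and 10 reads in ctrl and 22, 27 and 25 in kd libraries. These groups did not overlap either, and the log2 fold change was 0.91 ± 0.11 (adjusted p = 0.00301). The voom fit gave 1.67 (adjusted p = 0.000716) for Hist2h3c1 and 1.05 (adjusted p = 0.00901) for Hist2h2be. With a pseudocount of 1 in place of 0.1 Hist2h2be lost its call, at 0.39 (adjusted p = 0.00281), under the required fold, and Hist2h3c1 kept it at 0.85.

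The other 6 genes did not pass at 48 h. Of the 8 genes, 3 had an unadjusted p under 0.05, the third being Hist1h1c, and voom called no gene lower either. Hist3h2a, an H2A gene, had 82, 46 and 72 reads in ctrl and 71, 65 and 60 in kd libraries, with a log2 fold change of 0.07 ± 0.16 (adjusted p = 0.777). Hist1h1c, which encodes a linker histone H1, had 64, 48 and 64 against 44, 46 and 44 reads. Its kd libraries lay just below its ctrl libraries in FPKM, at -0.30 ± 0.10 (adjusted p = 0.0732). Hist3h2ba had 17, 16 and 26 reads in ctrl and 14, 14 and 7 in kd libraries, and a log2 fold change of -0.68 ± 0.31 (adjusted p = 0.169). Hist1h2bc, Hist1h4i and Hist1h1e had log2 fold changes between -0.15 and 0.07.

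The reads of Hist2h3c1 cannot be assigned to it alone. Its span lies inside that of Gm20634, a gene on the same strand, which had 13, 9 and 15 reads without and 38, 32 and 44 with doxycycline at 48 h. Gm20634 differed from Hist2h3c1 by at most 1 read in the 15 libraries, so nearly all reads of Gm20634 fell within the histone gene. Of the 75-base windows of Hist2h3c1, 66.2% were found in no other gene. Hist2h2be overlaps no listed gene, and 100% of its windows were its own. With genes that overlap others left out, the call of Hist2h2be was the 1 left at 48 h.

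At 72 h the 5 histone genes tested against the 48 h ctrl group all fell, while 5.28% of all 10664 genes tested fell. Of the 5, Hist3h2ba, Hist1h4i and Hist1h2bc were under a minimum of the filter at 72 h and passed through the ctrl group. The median log2 fold change over the 5 genes was -1.34, against 0.01 over all genes tested. Hist3h2ba, an H2B gene of the Hist3 cluster at chr11:58948920-58949533, fell from 17, 16 and 26 reads to 2, 6 and 5. Its log2 fold change was -2.16 ± 0.38 (adjusted p = 0.00289). Hist3h2a, its H2A neighbour at chr11:58954685-58956830, went from 82, 46 and 72 to 23, 27 and 32 reads, with a log2 fold change of -1.27 ± 0.17 (adjusted p = 0.000995). Both of these genes had 72 h libraries wholly below the ctrl libraries. The other member of this cluster, the pseudogene Hist3h2bb-ps, was at 0 in every library.

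Hist1h1c at chr13:23738808-23740367 fell from 64, 48 and 64 reads to 31, 20 and 18, or from 3.13 ± 0.441 to 1.15 ± 0.356 FPKM. The log2 fold change was -1.39 ± 0.20 (adjusted p = 0.00129). Hist1h4i, an H4 gene at chr13:22040636-22041362 on the minus strand, had 19, 19 and 29 reads in ctrl and 8, 9 and 9 at 72 h (log2 fold change -1.34 ± 0.21, adjusted p = 0.00161). Hist1h2bc, the H2B gene at chr13:23684199-23692908 with the most reads, had 108, 83 and 89 against 41, 59 and 62 reads. Its log2 fold change of -0.77 ± 0.13 (adjusted p = 0.00236) was the smallest of the 5. In none of these genes, picked by the call on the same libraries, did the groups overlap.

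The voom fit tested 9 histone genes at 72 h and called 6 lower and none higher, against 10.2% of all 16146 genes tested lower. The sixth was Hist1h1d, a linker histone gene, with 12, 10 and 25 reads in ctrl and 6, 4 and 11 at 72 h, which overlap as reads but not in RPM. Its log2 fold change was -1.17 ± 0.40 (adjusted p = 0.0150). Of the genes called, Hist1h1d, Hist3h2ba and Hist1h4i had means under 10 reads at 72 h and passed the filter only through the ctrl group. The 3 genes voom did not call were Hist2h3c1, Hist2h2be and Hist1h2be. Hist2h3c1 had 6, 5 and 15 reads at 72 h against 13, 9 and 15 in ctrl libraries, with a log2 fold change of -0.69 ± 0.37 (adjusted p = 0.108). Hist2h2be had 15, 14 and 11 reads at 72 h, close to its ctrl reads, and a log2 fold change of 0.01 ± 0.30 (adjusted p = 0.976). Hist1h2be had 37, 39 and 16 against 18, 26 and 17 reads (-0.61 ± 0.29, adjusted p = 0.0741). Its 37455-base span contains Hist1h1e in part and Gm11398, so its reads are shared with them.

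Hist3h2a also shares its span. Trim17 starts at the same base and runs on past it, and had 93, 59 and 83 reads in ctrl cells at 48 h and 30, 38 and 39 in kd cells at 72 h. Most of the reads of Trim17 were therefore those counted for Hist3h2a. Whether strand was used in the counting is not given in the sources used here, so genes that overlap cannot be told apart. Gm44313 overlaps Hist3h2a as well.

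**Figure D3:**
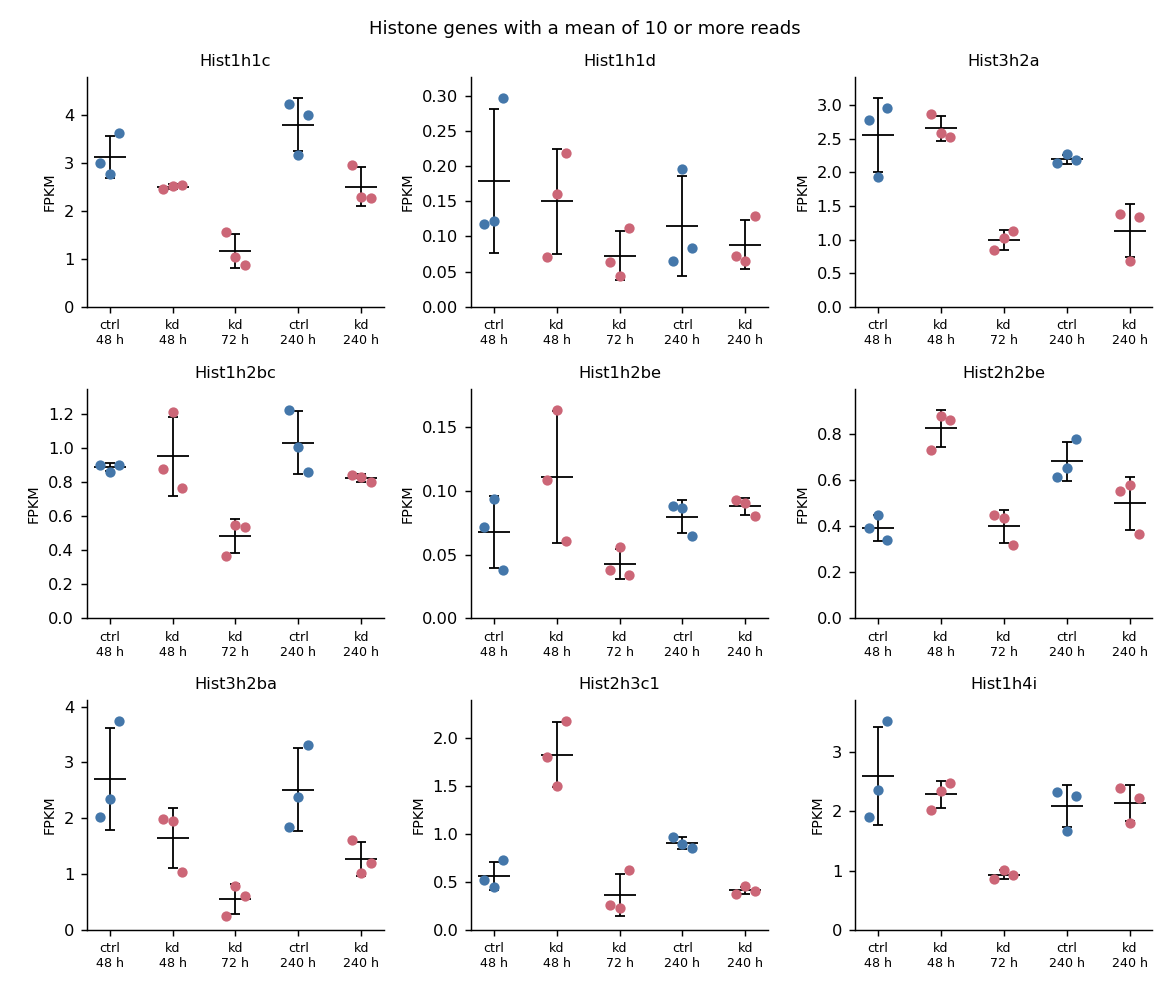
FPKM of the 9 histone genes with a mean of 10 or more reads, by library (points), group mean (dash) and SD (bars, n = 3). Hist2h3c1 and Hist2h2be stand out at 48 h, where their kd libraries lie above ctrl, and the genes called at 72 h have their lowest group mean there.

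Within kd cells, 48 h and 72 h were also set side by side. All 6 histone genes tested fell between these times, while 3.31% of all 10695 genes tested fell. Of the 6, Hist2h3c1, Hist2h2be, Hist1h2bc and Hist1h4i were under a minimum at 72 h and passed through the 48 h group. With no filter, 55 of the 57 histone genes with a read in these libraries had a lower mean RPM at 72 h (96.5%), against 53.2% of all genes with a read. The summed histone RPM at 72 h was 39.3% of that at 48 h of knockdown, and the groups did not overlap. Hist2h3c1 changed most, from 38, 32 and 44 reads to 6, 5 and 15 (log2 fold change -2.13 ± 0.31, adjusted p = 0.00318). Hist3h2a (-1.34), Hist1h4i (-1.21), Hist1h1c (-1.09), Hist2h2be (-0.89) and Hist1h2bc (-0.84) were called lower as well. Hist2h2be went from 22, 27 and 25 to 15, 14 and 11 reads (adjusted p = 0.00285), so the level reached at 72 h was near that of the 48 h ctrl cells. This comparison shares its 72 h libraries with the one before it.

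Between 72 h and 240 h of knockdown, 3 of the 4 histone genes tested rose and none fell, while 6.52% of all 10724 genes tested rose. Hist1h4i and Hist1h2bc were under a minimum at 72 h and passed through the 240 h group. Hist1h4i went from 8, 9 and 9 to 23, 19 and 22 reads (log2 fold change 1.11 ± 0.11, adjusted p = 0.000225). Hist1h1c went from 31, 20 and 18 to 61, 52 and 48 reads (1.08 ± 0.21, adjusted p = 0.00400). Hist1h2bc rose by 0.68 ± 0.13 (adjusted p = 0.00393), which dropped to 0.53 without replicate 1 of the 72 h kd group, below the fold required. Hist3h2a did not pass, with 23, 27 and 32 reads at 72 h and 39, 21 and 39 at 240 h (0.12 ± 0.26, adjusted p = 0.708).

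At 240 h 4 of the 7 histone genes tested were lower in kd than in ctrl cells and none was higher, while 4.33% of all 10643 genes tested fell. Hist2h3c1 and Hist2h2be were under 0.5 FPKM in kd cells and passed through the ctrl group. The median log2 fold change over the 7 genes was -0.58, against 0.00 over all genes tested. Hist2h3c1, which had risen at 48 h, had 22, 20 and 20 reads in ctrl and 9, 12 and 10 in kd libraries. It fell by 0.98 ± 0.08 on the log2 scale (adjusted p = 0.000234). The groups were far apart relative to their spread, at 0.905 ± 0.0580 and 0.410 ± 0.0400 FPKM. Hist3h2a had 57, 60 and 60 reads in ctrl and 39, 21 and 39 in kd libraries (-0.96 ± 0.24, adjusted p = 0.0217). Hist3h2ba had 14, 18 and 26 against 13, 9 and 10 reads (-0.91 ± 0.24, adjusted p = 0.0240). Hist1h1c had 82, 61 and 80 against 61, 52 and 48 reads, and its log2 fold change of -0.582 ± 0.14 (adjusted p = 0.0183) lay at the required size. In FPKM all 4 genes, picked by the call on these libraries, had kd libraries wholly below the ctrl libraries. The share of all genes tested that separated in this way was not computed.

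Of these 4 calls, those of Hist3h2a, Hist3h2ba and Hist1h1c depended on single libraries. The adjusted p of Hist3h2a was 0.0531, 0.0648 and 0.051 without ctrl replicates 1, 2 and 3 of that time. Hist3h2ba reached 0.0627 without ctrl replicate 2, 0.0725 without kd replicate 2 and 0.0694 without kd replicate 3. Hist1h1c reached 0.0545 and 0.0512 without ctrl replicates 1 and 3, and 0.0603 and 0.061 without kd replicates 2 and 3. The directions stayed the same in each case.

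Genes that did not pass at 240 h included the H4 gene Hist1h4i, with 21, 15 and 21 reads in ctrl and 23, 19 and 22 in kd libraries (0.04 ± 0.15, adjusted p = 0.851). Hist1h2bc had 133, 108 and 96 against 97, 105 and 95 reads (-0.28 ± 0.12, adjusted p = 0.104). Hist2h2be had 20, 21 and 26 against 19, 22 and 13 reads (-0.40 ± 0.16, adjusted p = 0.0952). The voom fit tested 9 histone genes and called 5 lower and none higher, against 8.15% of all 16633 genes lower. It added Hist1h2bp, an H2B gene with 14, 12 and 18 reads in ctrl and 3, 10 and 6 in kd libraries (-1.39 ± 0.38, adjusted p = 0.00645). The mean of Hist1h2bp was under 10 reads in kd cells, so this gene passed the filter only through the ctrl group.

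**Figure D4:**
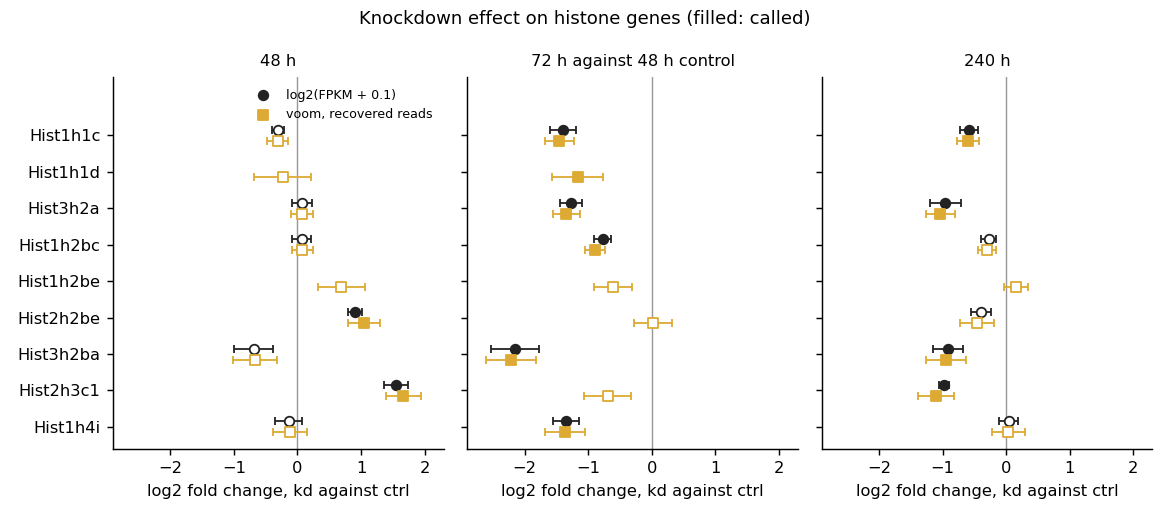
Log2 fold change of kd against ctrl for the 9 histone genes at 48 h, 72 h and 240 h, from limma on log2(FPKM + 0.1) (black) and limma voom on recovered reads (yellow). Bars are SE, filled symbols passed the call and open ones did not, and genes without a symbol were not tested. At 72 h the filled symbols all lie left of 0.

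The knockdown effect at 240 h was compared with that at 48 h by an interaction term over 12 libraries. It was called for 3 of the 7 histone genes tested, all more negative at 240 h, while 3.49% of all 10621 genes tested were. Hist2h2be was under 0.5 FPKM in the 48 h ctrl and 240 h kd groups, and Hist2h3c1 in the 240 h kd group. Both passed the filter through the groups where they were high. The difference was -2.53 ± 0.22 on the log2 scale for Hist2h3c1 (adjusted p = 3.49e-05) and -1.31 ± 0.21 for Hist2h2be (adjusted p = 0.00170). For Hist2h3c1 the kd libraries were above ctrl at 48 h and below ctrl at 240 h. Hist3h2a differed by -1.03 ± 0.32 (adjusted p = 0.0476), and the call was lost in 9 of the 12 fits that left out 1 library (adjusted p from 0.0515 to 0.104). For Hist1h1c (-0.28 ± 0.19, adjusted p = 0.339) and Hist1h4i (0.18 ± 0.29, adjusted p = 0.711) the difference did not pass.

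Untreated cells gave the background over time. Between 48 h and 240 h of ctrl culture 1 of the 8 histone genes tested rose and none fell, while 0.434% of all 10591 genes tested rose. Hist2h2be, which passed the filter only through the 240 h group, had 14, 13 and 10 reads at 48 h and 20, 21 and 26 at 240 h (0.67 ± 0.11, adjusted p = 0.0346). No histone gene was called when any 1 of the 6 libraries was left out, and voom gave Hist2h2be an adjusted p of 0.0673. Hist2h3c1 had 13, 9 and 15 and then 22, 20 and 20 reads (0.62 ± 0.15, adjusted p = 0.0615). In voom the H1 gene Hist1h1e was called lower instead, with 15, 13 and 17 and then 5, 10 and 5 reads (-1.23 ± 0.34, adjusted p = 0.0268). Its mean was under 10 reads at 240 h, so it passed the filter only through the 48 h group. The 72 h kd libraries, set against the 240 h ctrl group in place of the 48 h one, gave 7 of 7 histone genes tested lower, while 6.85% of all 10724 genes tested were lower. Of these, Hist2h3c1, Hist2h2be, Hist1h2bc, Hist1h4i and Hist3h2ba were under a minimum of the filter at 72 h and passed through the ctrl group. That count is therefore no separate support for a fall.

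Genes that act on histone mRNA and chromatin were followed from lists. Slbp, whose product binds the stem-loop, was at 5.95 ± 0.115 FPKM in ctrl cells and 4.44 ± 0.156 in kd cells at 48 h, and at 3.67 ± 0.108 in kd cells at 72 h (SD, n = 3). At 240 h it was at 6.15 ± 0.256 in ctrl and 5.09 ± 0.119 in kd libraries. It fell at 72 h (-0.68 ± 0.04, adjusted p = 2.60e-05), and its changes of -0.42 at 48 h and -0.27 at 240 h stayed under the required fold. Of the 20 tested genes of histone mRNA 3′ processing and decay, 4 fell and none rose at 72 h, where 5.28% of all genes tested fell, and none passed at 48 h or 240 h. The others that fell were Srrt, Cpsf2 and Zfp473, the last a zinc finger protein of the histone pre-mRNA processing complex. The list median at 72 h was -0.13, against 0.01 over all genes tested.

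Of 13 genes of histone gene transcription, 1 fell at 72 h, against 5.28% of all genes tested. It was Ccne2 (-1.03 ± 0.07, adjusted p = 5.60e-05), which encodes a cyclin E. Npat, the coactivator of histone genes that cyclin E with its kinase phosphorylates, was at 2.24 ± 0.129 FPKM in ctrl cells at 48 h and 1.85 ± 0.0608 at 72 h (-0.26 ± 0.05, adjusted p = 0.00596), under the required fold. Casp8ap2, also known as FLASH, had a log2 fold change of -0.04 ± 0.06 (adjusted p = 0.584). Ccne1 was at -0.38 ± 0.05 (adjusted p = 0.000919). At 48 h and 240 h no gene of this list passed.

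Of 47 DNA replication and S phase genes tested at 72 h, 5 fell and 1 rose, and the list median was -0.11. Of all genes tested 5.28% fell and 8.62% rose. E2f2, Ccne2, Tyms, Tk1 and Pcna fell, and Pold1, the catalytic subunit of DNA polymerase delta, rose by 0.83 ± 0.04 (adjusted p = 1.33e-05). Pcna, the sliding clamp of DNA polymerases, was at 59.3 ± 2.27 FPKM without and 35.0 ± 2.77 with doxycycline at 48 h. It had fallen by 0.76 ± 0.07 on the log2 scale at 48 h, when the summed histone reads of ctrl and kd cells overlapped. At 240 h it was at 58.1 ± 3.99 in ctrl and 38.5 ± 0.533 in kd libraries. Mcm2, a helicase subunit, was at -0.07 ± 0.04 at 72 h (adjusted p = 0.190), and Ccna2, the S phase cyclin A, at -0.19 ± 0.03 (adjusted p = 0.00289). At 48 h and at 240 h Pcna and E2f2 fell and no other gene of this list passed, while 2.17% and 4.33% of all genes tested fell.

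Replication-independent histone genes supply histones outside S phase, and their mRNAs are mostly polyadenylated. Of 11 tested at 72 h, H3f3b, encoding the H3.3 variant, fell (-0.59 ± 0.04, adjusted p = 4.28e-05), and H2afy, encoding macroH2A, rose (0.60 ± 0.04, adjusted p = 5.46e-05). H3f3a, the other H3.3 gene, was at -0.46 ± 0.04, H2afz at -0.35 ± 0.05 and H2afx at -0.44 ± 0.05, all under the required fold. These single calls stand beside the 5.28% of all genes tested that fell and the 8.62% that rose. The list median was -0.35 at 72 h, -0.22 at 240 h and -0.12 at 48 h. Among 23 histone chaperone and deposition genes Asf1a alone fell at 72 h (-0.72 ± 0.06, adjusted p = 0.000161). Chaf1a was at -0.10 ± 0.03, Asf1b at -0.43 ± 0.06 and Nasp at -0.31 ± 0.03. No gene of either list passed at 48 h or 240 h.

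Of 7 listed RNAs without a poly(A) tail, 2 could be tested at 72 h, and both fell, while 5.28% of all genes tested did. Rpph1 was under the read minimum at 72 h and passed through the ctrl group. Rn7sk, the RNA of the 7SK particle, had 27, 34 and 45 reads in ctrl cells at 48 h and 10, 7 and 13 in kd cells at 72 h (-1.88 ± 0.29, adjusted p = 0.00163). Rpph1, the RNA of RNase P, had 16, 19 and 24 against 6, 6 and 6 reads (-1.72 ± 0.20, adjusted p = 0.000472). At 240 h both were lower in kd cells as well, Rpph1 with 26, 42 and 34 against 12, 8 and 10 reads (-1.85 ± 0.23) and Rn7sk with 25, 15 and 31 against 10, 18 and 13 (-0.89 ± 0.28, adjusted p = 0.0449). At 48 h Rmrp, the RNA of RNase MRP, rose (1.09 ± 0.26, adjusted p = 0.0315), with 7, 6 and 9 against 22, 12 and 13 reads, and passed the filter only through the kd group. The sum over the 7 RNAs ranged from 13.8 to 23.6 FPKM in ctrl cells and from 18.98 to 24.6 in kd cells at 48 h. The range was 5.06 to 7.26 at 72 h, and at 240 h it was 15.8 to 19.3 in ctrl cells and 9.78 to 10.6 in kd cells.

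A set of 2906 annotated small nuclear and nucleolar RNA genes did not separate in this way. This set was taken by annotated gene type and not from the list above. It is therefore not a wider class that holds the listed RNAs. Its RPM ranged from 231 to 251 in ctrl cells at 48 h and from 194 to 235 in kd cells at 72 h. At 240 h the ranges were 207 to 269 without and 201 to 231 with doxycycline. These groups overlapped. Whether the share of RNA without a poly(A) tail that entered each library differed, and its part in the histone values, was not tested.

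**Figure D5:**
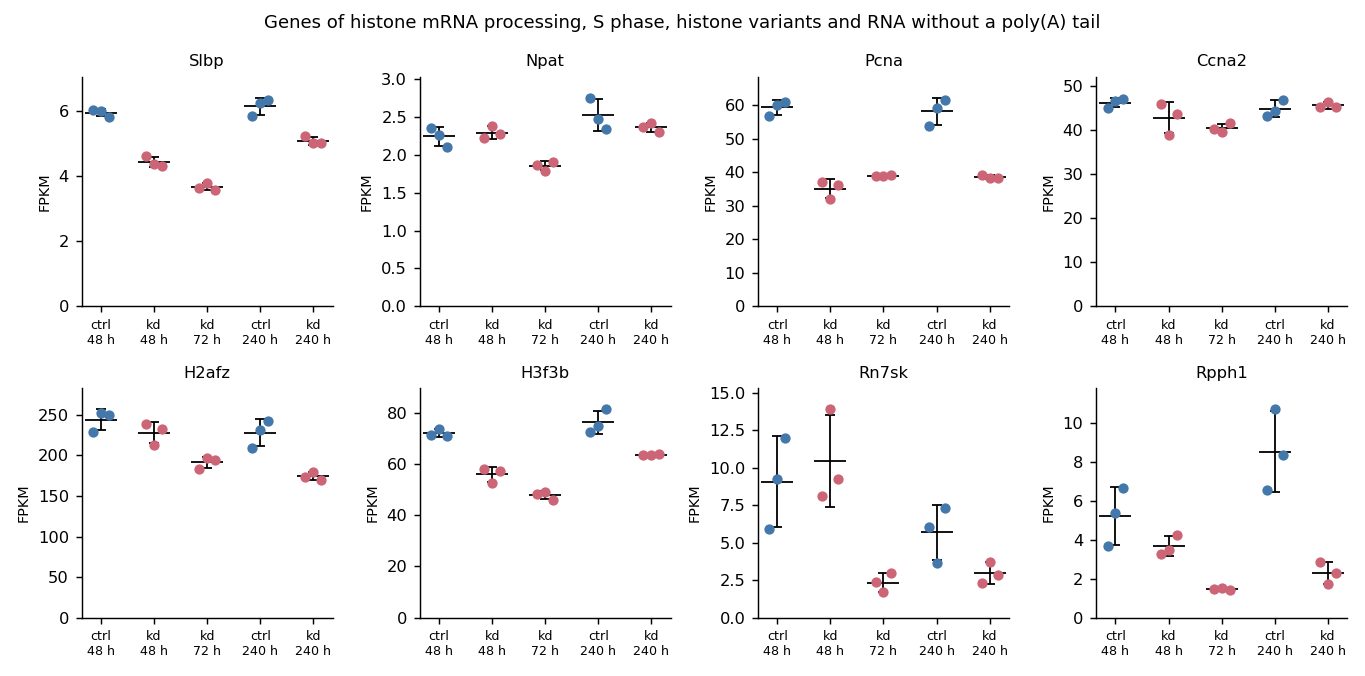
FPKM of Slbp, Npat, Pcna, Ccna2, H2afz, H3f3b, Rn7sk and Rpph1 by library (points), group mean (dash) and SD (bars, n = 3). Pcna is already low in kd cells at 48 h, whereas Rn7sk is lowest at 72 h and overlaps between ctrl and kd at 48 h.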

How the data were processed

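RNA was sequenced as single-end reads from 15 mouse ESC libraries in 5 groups of 3. The authors aligned reads to mm10 (GRCm38) and deposited FPKM per gene; per the submitters' processing notes STAR 2.7.0c, DESeq2 1.30.0 and R 4.0.3 were used. Deposited FPKM times the gene span and a library total came out as whole reads in 100% of cases (tolerance 0.001), so reads, counted per gene with GenomicRanges and Rsamtools, were scaled by whole spans. Read sums over genes exceeded the totals by 7.38% to 8.34%, since overlapping genes both count a shared read. Of the listed genes, 53297 (96.5%) matched GENCODE M21 coordinates, and all 70 histone genes did. Coordinates are 1-based.

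Tests used limma 3.58.1 in R 4.3.3 (lmFit, eBayes with trend, two-sided) on log2(FPKM + 0.1), with the filter and call given in the text, on the libraries compared. FPKM are not counts, so limma voom on recovered reads served as an alternative. Scripts were tested on simulated data. Same-numbered replicates did not deviate together (correlations of deviations from -0.299 to 0.286), so numbers were not used as pairs. Histone genes named were Hist2h3c1, up to 8 called genes per direction in each comparison and the 2 tested genes of each type with the highest FPKM. Of the lists, 14 preset genes and up to 3 called genes per direction were named; Zfp473, Tyms, Tk1 and genes added by an alternative or a shared span were named after their values were seen. Members, lists and rules were chosen with earlier results of these data known. Sums by type carry no test, since 3 against 3 libraries cannot reach an exact permutation p below 0.1. Python 3.11.15, numpy 2.4.6, pandas 2.3.3 and matplotlib 3.10.9 were used.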

Additional observations from a re-analysis of the deposited data

Results flagged for a closer look

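The interaction term called 3 histone genes, in which the log2 fold change of kd against ctrl was lower at 240 h than at 48 h. The difference was -2.53 for Hist2h3c1, an H3 gene whose kd libraries were above ctrl at 48 h and below ctrl at 240 h. It was -1.31 for Hist2h2be, an H2B gene of the same cluster, which was called higher in kd cells at 48 h and did not pass at 240 h. It was -1.03 for Hist3h2a, an H2A gene whose span is shared with Trim17, which did not pass at 48 h and was called lower at 240 h. The call of Hist3h2a was lost in 9 of the 12 fits that left out a library, and those of the other 2 genes were kept in all 12. Those 2 genes were under the FPKM minimum in some of the groups and passed the filter through the groups where they were high. Groups of 3 libraries were not examined for single outlying libraries.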

How the results depend on the processing

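Among 305 values of counts and summed levels under the alternatives, 262 stayed within 1.5 times the count or 1 SD of the level, and 43 moved. Of 883 fold changes of single genes, 823 kept direction and side of the threshold, 47 lost the call, 1 gained it and 12 changed sign. The comparisons are named by their groups, and the cause of each shift was not tested. The share of all genes called was not computed under the settings below, so these counts have no background beside them. With a pseudocount of 1 the histone genes called were 1 at 48 h (Hist2h3c1), 2 at 240 h and 0 between the ctrl groups. A minimum of 30 reads left 0 at 48 h, 3 at 72 h, 2 at 240 h, 0 between the ctrl groups, 3 between 48 h and 72 h of knockdown and 1 for the interaction. With no minimum 13 were called at 72 h, 2 at 240 h, 0 between the ctrl groups and 6 between 72 h and 240 h of knockdown. With 0.5 FPKM and no minimum of reads the counts were 0 between the ctrl groups, 10 for 72 h against 48 h of knockdown and 5 for 240 h against 72 h of knockdown. A log2 fold above 1 gave 1 at 48 h, 0 at 240 h and 0 between the ctrl groups. Genes with the stem-loop gave 1 at 48 h and 0 between the ctrl groups, and genes without overlap gave 1 at 48 h, 2 at 240 h and 1 for the interaction. TPM gave 3 between the ctrl groups. With the replicate number as a block, 0 were called between the ctrl groups, and no other count moved; the labels' numbers share only a number and do not pair the samples.

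Summed levels, as log2 ratios of summed FPKM, moved in 7 cases. The median over members gave -2.12 for H1 and -2.65 for H3 at 72 h, -2.03 and -1.72 for H2A at 48 h and 240 h, and -0.61 for H4 at 240 h, against -1.54, -1.96, -0.11, -0.83 and -0.12 for the sums. Of the 20 H2A genes, 5 were at 0 in every library and only 1 reached a mean of 10 reads. Their median thus rests on values at or near 0, and the summed H2A RPM at 48 h was 99.2% of ctrl. RPM gave -1.03 and -0.36 for H2B at 72 h and 240 h, against -1.70 and -0.59.

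When 1 library was left out, the counts ranged from 2 to 2 at 48 h, 4 to 5 at 72 h, 2 to 5 at 240 h, 0 to 0 between the ctrl groups, 6 to 6 and 2 to 3 within knockdown, and 2 to 3 for the interaction. Levels in the order 48 h, 72 h and 240 h ranged for H1 from -0.32 to 0.08, -1.68 to -1.28 and -0.72 to -0.52, and for H2A from -0.25 to 0.09, -1.27 to -0.95 and -1.03 to -0.69. For H2B they ranged from -0.52 to 0.05, -1.92 to -1.35 and -0.71 to -0.51, and for H3 from -0.11 to 0.34, -2.27 to -1.69 and -0.87 to -0.54. For H4 the ranges were -0.28 to 0.10, -2.10 to -1.72 and -0.25 to 0.02. The sign changes were all in fold changes that had not passed the test. In ctrl cells over time Hist3h2ba was at 0.013 after scaling to TPM, and without 1 library it ranged from -0.31 to 0.16. At 48 h the ranges without 1 library were -0.32 to 0.035 for Hist1h1e, -0.11 to 0.19 for Hist3h2a, -0.10 to 0.20 for Hist1h2bc and -0.33 to 0.10 for Hist1h4i. Hist1h4i ranged from -0.10 to 0.16 at 240 h and from -0.059 to 0.37 for the interaction. Hist3h2a ranged from -0.044 to 0.42 between 72 h and 240 h of knockdown. Depth set a limit, since 61 of the 70 genes had a mean under 10 reads, and most of them were followed only as sums.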
